A study of Mus musculus with 4 samples.

Results

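The 6 loci described here are those of Jun, Junb, Jund, Fos, Fosb and Fosl2, the genes of the Jun and Fos families of the transcription factor AP-1 for which mm9 windows were set. A peak belonged to a locus when its centre lay in the window of that gene. That each window holds the gene it is named for was not checked against an mm9 annotation, so a peak "at Jun" means a peak in the window set for Jun. The windows were 100 to 140 kb wide and covered 690 kb in all. They held 12 of the 5738 ERG peaks of leukemia 1 and 5 of the 3751 of leukemia 2. ERG was mapped by chromatin immunoprecipitation and sequencing (ChIP-seq) in spleen cells of C57BL6 mice, with an antibody listed for ERG-1/2/3. Both leukemias carry the TgERG name. Leukemia 1 is labelled Transgenic, and leukemia 2 is labelled Transgenic GATA1s. GATA1s commonly denotes a truncated form of GATA1, a regulator of red cells and megakaryocytes. Each has 1 ERG library, and an IgG library that was not used here. The labels give no age, no promoter of the transgene and no sorting of the spleen cells, and no marker in these peak lists tests the cell type.

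AP-1 is a dimer of basic leucine zipper proteins. Jun proteins pair with each other or with Fos proteins, while Fos proteins need a Jun partner to bind DNA. Jun, Fos and Fosb are among the immediate early genes, which are switched on soon after growth factor or stress signals. AP-1 acts in growth, in stress responses and in the differentiation of myeloid blood cells. ERG belongs to the ETS family, whose members bind DNA at a GGAA core, and ETS and AP-1 sites often stand side by side in regulatory DNA.

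The sequences under the peaks were not analysed here, because no mm9 genome was used. The promoters of the 6 genes were matched by symbol in RefSeq (build GRCm38.p6), 1 entry each. The 250 bases before the start of 3 genes are shown because they span the range of the peak counts: Jun had the most peaks of leukemia 1 in its window, both peaks of Fosb were shared by the leukemias, and Fos had none. Capitals mark the ETS core GGAA or its reverse complement TTCC and the AP-1 and CREB type site TGACNTCA. These coordinates cannot be set against the mm9 peaks, so whether any peak covers these bases was not tested.
Jun, chr4:95052223-95052472 (minus strand): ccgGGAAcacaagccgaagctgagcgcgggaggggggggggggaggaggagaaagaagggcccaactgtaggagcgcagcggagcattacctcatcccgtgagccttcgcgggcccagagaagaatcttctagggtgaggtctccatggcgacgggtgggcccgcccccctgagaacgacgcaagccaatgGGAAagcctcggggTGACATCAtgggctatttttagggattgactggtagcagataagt
Fosb, chr7:19310046-19310295 (minus strand): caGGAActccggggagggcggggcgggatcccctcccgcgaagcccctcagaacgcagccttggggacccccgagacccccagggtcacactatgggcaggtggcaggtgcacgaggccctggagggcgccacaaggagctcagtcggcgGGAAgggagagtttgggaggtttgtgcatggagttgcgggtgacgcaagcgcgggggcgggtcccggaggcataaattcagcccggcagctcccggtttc
Fos, chr12:85473640-85473889 (plus strand): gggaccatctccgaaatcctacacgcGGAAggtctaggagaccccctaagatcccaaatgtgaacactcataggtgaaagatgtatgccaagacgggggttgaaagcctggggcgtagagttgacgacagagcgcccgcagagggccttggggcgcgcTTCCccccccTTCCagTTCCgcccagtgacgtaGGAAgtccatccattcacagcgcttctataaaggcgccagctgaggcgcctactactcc

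All 6 promoters held GGAA on 1 strand or the other, as did 93.4% of 32851 promoter entries of the same length. Fos had 5 copies, Junb 3, Jun, Jund and Fosb 2 each, and Fosl2 1. The longer ETS site CCGGAA, which includes that core, was in 0 of the 6 and in 12% of all entries. The site TGACNTCA was found in 1 of the 6, as TGACATCA beginning 45 bases before the start of Jun, against 7.49% of all entries. The other common AP-1 site, TGANTCA, was in 0 of the 6 and in 6.75% of all entries. Each motif was searched on both strands. These matches describe letters in a short window and say nothing about binding.

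ERG peaks lay in 4 of the 6 windows in both leukemias, and the same 4 loci had them: Jun, Junb, Jund and Fosb. Of all windows on grids of the same widths, 14.5 to 18.5% held a peak of leukemia 1 and 10.7 to 14% one of leukemia 2; the loci were picked with these lists known, so nothing is read from the difference. The windows of Fos and Fosl2 had none in either leukemia. Leukemia 1 had 4 peaks at Jun, 3 at Junb, 3 at Jund and 2 at Fosb. Leukemia 2 had 1 each at Jun, Junb and Jund and 2 at Fosb. All 3 Jun family loci thus had more peaks in leukemia 1, as did its list as a whole, whereas the counts at Fosb were equal. With 1 library per leukemia none of these differences can be set against a replicate error, and no test was made.

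The comparison between the leukemias asked which of these peaks occurred in both lists. Peaks of the lists that had 1 bp or more in common counted as shared. Of the 5 peaks of leukemia 2, 5 were shared (100%, 95% Wilson interval 56.6 to 100), beside 85.3% of its whole list. Of the 12 peaks of leukemia 1, 5 were shared (41.7%, 19.3 to 68.0), beside 55.8% of its whole list. The remaining 7 were found in leukemia 1 alone, a class that made up 44.2% of that list, and 0 were found in leukemia 2 alone, beside 14.7% of that list. Both intervals cover counting error only. They treat peaks as independent draws, although several lie in the same window. The difference from the whole list was therefore not tested. Leukemia 1 had 2.4 times as many peaks as leukemia 2 in the windows and 1.53 times as many over all chromosomes. Depth and the calling threshold are unknown, so they cannot be told apart from the GATA1s label or from any other difference between the leukemias.

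**Figure D1:**
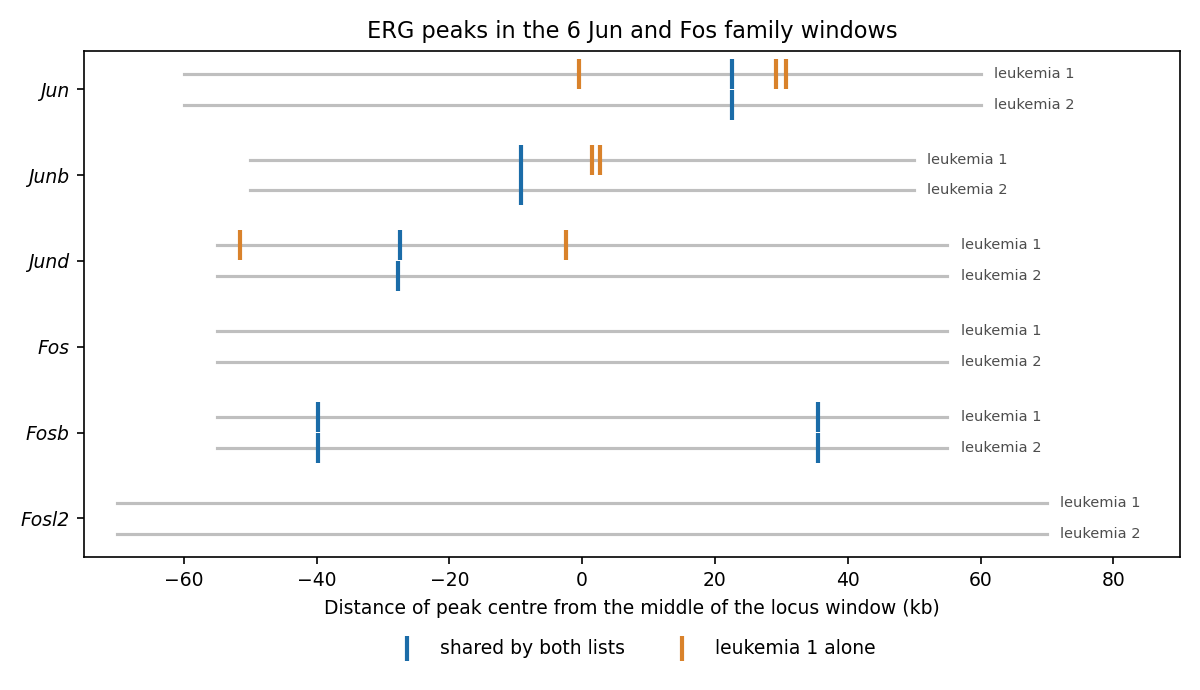
Positions of the ERG peaks in the 6 windows. The x axis gives the distance of each peak centre from the middle of its window in kb, each grey line is the window of 1 locus in 1 leukemia, and each tick is a peak, blue where shared and orange where in leukemia 1 alone. The 5 shared peaks lie at Jun, Junb, Jund and Fosb, the 7 orange ticks all lie at the Jun family loci, and the Fos and Fosl2 lines are empty.

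Jun encodes c-Jun, the founding member of its family. Its window on chromosome 4 had 4 peaks in leukemia 1, at chr4:94719316-94719715, chr4:94742401-94742800, chr4:94749058-94749457 and chr4:94750547-94750946. Leukemia 2 had only the peak at chr4:94742401-94742800, and there the intervals of the lists were identical, base for base. The 3 others were in leukemia 1 alone. The first of them lay 23.09 kb from the shared peak, and the last pair were 1489 bp apart, 6.657 and 8.146 kb from it. Jun was the locus with the most peaks of leukemia 1 alone. In leukemia 2 the next peaks outside the window were distant, 390.1 kb below its lower border and 2986 kb above its upper border. Leukemia 1 had one 14.27 kb below the window, also in that list alone, and the next one 353.6 kb above it.

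Junb encodes JunB, which limits proliferation of myeloid cells and can oppose c-Jun. In leukemia 1 its window on chromosome 8 had peaks at chr8:87490635-87491034, chr8:87501272-87501671 and chr8:87502560-87502959. The leukemia 2 peak, chr8:87490628-87491027, matched the first of these with centres 7 bp apart. The other two were in leukemia 1 alone, 1288 bp from each other and more than 10 kb from the shared peak (10.64 and 11.93 kb from the centre in leukemia 2). The arrangement resembled part of that at Jun: 1 peak common to both leukemias, and a close pair present in leukemia 1 alone to one side of it. Jun had a further peak of leukemia 1 alone on the other side of its shared peak, which Junb did not.

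Such close pairs were uncommon in the list as a whole. Of 5718 neighbouring pairs in leukemia 1, 125 had centres under 2 kb apart. Among those 125, 28 (22.4%) had both peaks in leukemia 1 alone, 69 (55.2%) had 1 shared peak and 28 (22.4%) had both shared. The pairs at Jun and Junb were 2 of the 28 with neither peak shared. The loci were picked with peaks of these lists known, so nothing is read from these 2 pairs. Leukemia 2 had 54 pairs under 2 kb, of which 0 were in the 6 windows. Only the Fosb window had more than 1 leukemia 2 peak, and its 2 were 75.21 kb apart. No other window could hold a pair, so this 0 is not read as a difference between the leukemias. The median distance between neighbouring peaks was 91.24 kb in leukemia 1.

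Jund encodes JunD, the most steadily expressed Jun protein in many tissues. Its window, also on chromosome 8, had 3 peaks in leukemia 1, at chr8:73173274-73173673, chr8:73197387-73197786 and chr8:73222399-73222798. They were evenly spread, 24.11 and 25.01 kb apart. The single peak of leukemia 2, at chr8:73197009-73197408, overlapped the middle one by only 22 bp, with centres 378 bp apart. Among all 3201 shared pairs, 3 (0.0937%), this one included, had centres as far apart or farther. It counts as shared under the rule of 1 bp, but no longer when at least 50% overlap is required. The lowest peak of leukemia 1 lay 3.473 kb inside the window border.

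Fosb encodes FosB, a partner of Jun proteins. Its window on chromosome 7 had 2 peaks in each leukemia, and both were shared. They were at chr7:19855033-19855432 and chr7:19930280-19930679 in leukemia 1, 75.25 kb apart, and at chr7:19855063-19855462 and chr7:19930270-19930669 in leukemia 2. The centres differed by 30 bp at the first and by 10 bp at the second. Another shared peak lay outside the window, 26.45 kb below its border in leukemia 1, at chr7:19813348-19813747. Fosb was the only 1 of the 4 occupied windows without a peak of leukemia 1 alone.

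Fos encodes c-Fos, the classical partner of c-Jun, and Fosl2 encodes Fra-2, a Fos family protein that is induced later than c-Fos. Neither window had a peak in either list. The nearest peak of leukemia 1 to the Fos window was at chr12:86981790-86982189, 112 kb above the upper border and in that list alone. On the lower side a shared peak lay 161.6 kb away, at chr12:86598202-86598601 in leukemia 1. In leukemia 2 the next peak above the window was 712.8 kb away. For Fosl2, the nearest peak of leukemia 1 lay 241.3 kb above the window, and the nearest of leukemia 2 was a shared peak 379.1 kb below it. The stretch without peaks around Fos was 383.6 kb long in leukemia 1 and 984.4 kb in leukemia 2, and 22.9% and 17.3% of all gaps between neighbouring peaks were as long or longer. Around Fosl2 it was 760.5 and 1015 kb, with 14.1% and 16.9% of gaps as long. A gap around an empty window must be longer than that window, whereas all gaps include shorter ones. That lowers these shares by construction, so nothing is read from them. Windows without peaks were the rule: on a grid of 110 kb windows over all chromosomes, 83.4% had no peak of either leukemia, and on one of 140 kb, 80.5%.

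The peak counts of the 4 occupied windows were set beside those of the whole genome. On grids of windows as wide as each locus, 0.848% of windows had at least the 4 leukemia 1 peaks found at Jun, 1.68% at least the 3 of Junb, 1.94% at least the 3 of Jund and 5.52% at least the 2 of Fosb. In leukemia 2 the shares were 12.4% for Jun, 10.7% for Junb and 11.6% for Jund, each with 1 peak, which are simply the shares of windows with any peak, and 3.12% for Fosb with 2. Most grid windows were empty, so any occupied window has more peaks than most. On the grid of 100 kb, 14.5% of windows had any peak of leukemia 1 and 10.7% any of leukemia 2. Counting the peaks of leukemia 1 alone, 0.394% of grid windows had at least the 3 of Jun, 1.47% at least the 2 of Junb and 1.63% at least the 2 of Jund. The grid also covers regions without genes, and the loci were picked with peaks of these lists known, so these shares are a description and not a test.

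**Figure D2:**
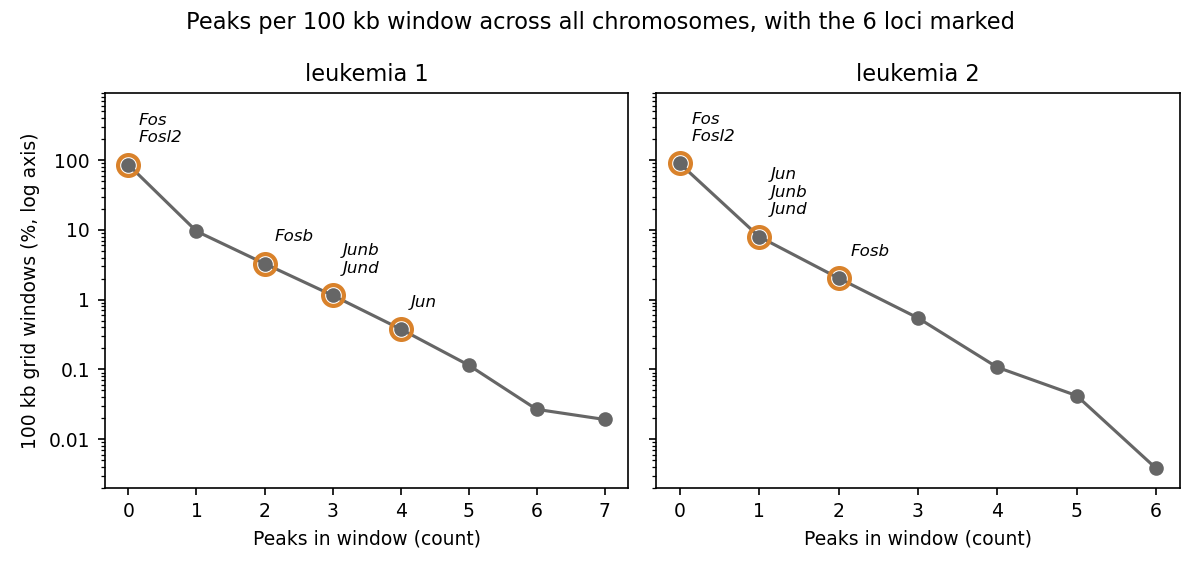
Peaks per window on a grid of 100 kb over all chromosomes, for leukemia 1 (left) and leukemia 2 (right). The x axis gives the number of peaks in a window, the y axis the percent of grid windows on a log axis, and orange rings mark the counts in the windows of the 6 loci, which are 100 to 140 kb wide. The Jun family loci sit at 3 and 4 peaks in leukemia 1 and at 1 peak in leukemia 2, while Fosb sits at 2 peaks in both.

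Taken over all 6 windows together, peaks were denser inside than beside them, though not at the empty windows of Fos and Fosl2. The loci were picked with peaks of these lists known, so these densities are a description and nothing is read from the difference. In leukemia 1 the 6 windows together had 1.74 peaks per 100 kb, their flanks of 500 kb on each side had 0.833, and all chromosomes had 0.219. In leukemia 2 these values were 0.725, 0.467 and 0.143. Per window, Jun had 3.33 peaks per 100 kb in leukemia 1 and 0.833 in leukemia 2, with 0.7 and 0.2 in its flanks. The flanks of Junb had 1.1 and 0.8, those of Jund 1.1 and 0.7, and those of Fosb 1.1 and 0.6. The flanks of the empty windows held peaks too, 0.6 and 0.3 per 100 kb at Fos and 0.4 and 0.2 at Fosl2, which in leukemia 2 was no less than the 0.2 beside Jun.

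Where the leukemias shared a peak at these loci, its position differed little in 4 of 5 cases. The centres were 0 bp apart at Jun, 7 bp at Junb, 10 and 30 bp at Fosb and 378 bp at Jund. The median of 10 bp stood beside a median of 12 bp over all 3201 shared pairs, of which 103 (3.22%) coincided exactly like that of Jun. The 7 peaks of leukemia 1 alone had no leukemia 2 peak at such distances, which follows from the definition of a shared peak. Their nearest leukemia 2 centres were 6.657 to 25.39 kb away, with a median of 11.93 kb. Over all 2537 peaks of leukemia 1 alone the median was 65.96 kb, and 29.4% lay within 25.39 kb. The windows of the 7 peaks all hold a leukemia 2 peak and are at most 120 kb wide. That limits the distances of the 7 by construction, so nothing is read from the difference.

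**Figure D3:**
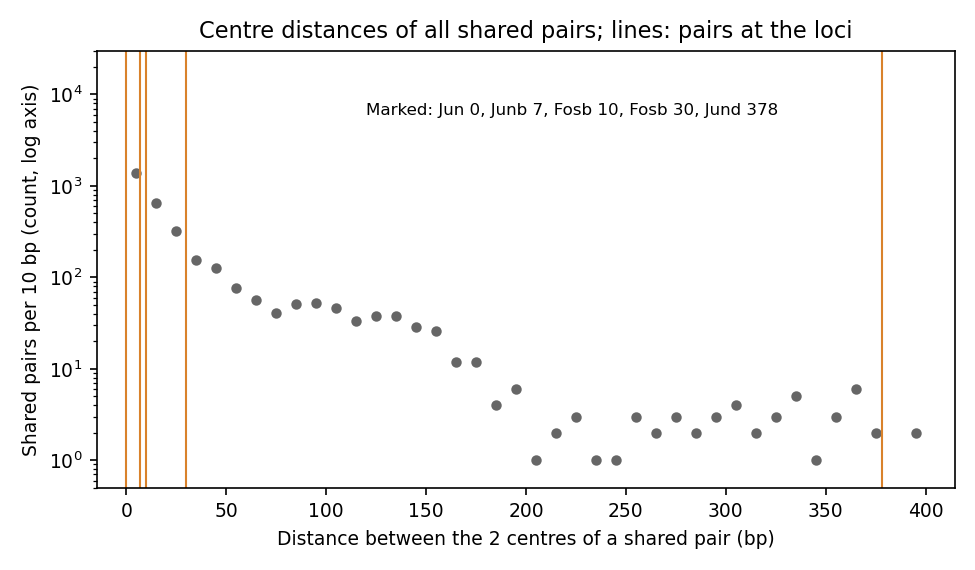
Distances between the centres of all 3201 shared pairs. The x axis gives the distance in bp, each grey point is the number of pairs in a bin of 10 bp on a log axis, and orange lines mark the 5 pairs at the loci. The lines for Jun, Junb and Fosb stand between 0 and 30 bp, where most pairs lie, and that of Jund stands at 378 bp, near the end of the range.

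A peak in a window is not thereby assigned to the gene that names it. In the gene order of GRCm38.p6, the nearest protein-coding genes on either side are Mysm1 and Fggy for Jun, Prdx2 and Hook2 for Junb, and Lsm4 and Iqcn for Jund. They are Rtn2 and Ercc1 for Fosb, and Babam2 and Plb1 for Fosl2. For Fos they are Tmed10 and Jdp2, with Batf next after Jdp2. Jdp2 and Batf also encode basic leucine zipper proteins of the AP-1 group. Which of these genes fall inside the mm9 windows, and whether a peak lies in a promoter, exon or intron, were not analysed here. Other AP-1 genes, Fosl1, Batf, Batf3, Atf3 and Jdp2 among them, had no mm9 window and were not analysed here.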

How the data were processed

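The data are 2 lists of ERG peaks, each assigned to the ERG library whose title its name carries, apart from the spelling of leukemia. The deposited lists hold positions and no other measurement: chromosome, start and end on mm9, with every interval 400 bp wide and no score. The submitters' processing notes name Bowtie, a read aligner, and the mouse build mm9. For the caller, the threshold and the use of IgG, nothing is given in the sources used here. The depth behind each peak is unknown. Coordinates are counted from 1.

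Peaks were selected by centre in the 6 windows and matched between lists by position, with shares given with 95% Wilson intervals. Grid windows ran from each chromosome's start to its last peak. The members and lists were chosen with earlier results of these data known. By rule, all 6 loci and each of their peaks are named. The overlap and grid functions were tested on simulated data. No test compares the groups, since each has 1 library. Alternatives were other overlap rules, window borders, grid starts and leaving out each locus. Python 3.11.15, NumPy 2.4.6, SciPy 1.17.1 and matplotlib 3.10.9 were used.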

Additional observations from a re-analysis of the deposited data

How the results depend on the processing

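Of 44 alternative values, 43 stayed close to the reported ones: counts within 1.5 times, and shares and densities within their 95% counting interval. Some of these could not move. Every leukemia 2 peak in the windows was shared, so leaving out a locus kept that share at 100%. Leaving out the empty Fos or Fosl2 window kept the shared percentage of leukemia 1 at 41.7%. Its interval, 19.3 to 68.0%, was wide, so staying within it says little. The density intervals rested on 12 and 5 peaks and were wide too, so the same holds for the densities. The exception was the number of leukemia 2 peaks in the windows, which fell from 5 to 3 when the windows were narrowed by 20 kb on each side, because both Fosb peaks lie nearer than that to a border. The same narrowing left 9 of the 12 peaks of leukemia 1, and widening by 20 kb gave 13. With at least 50% overlap, or with centres within 50 bp, 4 peaks were shared in place of 5, the Jund pair being lost. Leaving out each locus in turn gave shared percentages of leukemia 1 from 30% (without Fosb) to 50% (without Jun). Densities per 100 kb ran from 1.4 to 2.18 in leukemia 1 and from 0.517 to 0.909 in leukemia 2. A stricter threshold needs a score per peak and could not be tried. No paired analysis was possible because there is a single ERG library per leukemia. Depth and threshold are unknown, so a window without a peak is not shown to lack ERG.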
